A study of Oryzias latipes with 10 samples.

Results

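Extracellular matrix genes of medaka embryos are described here across wild type (WT) and *yap* mutants. The 8 genes, of 24365 in the count table, encode the fibrillar collagen chains *col1a1b* and *col5a2a*, the laminin chain *lamc1*, the basement membrane protein *frem1a*, the microfibril-associated glycoproteins *emilin2b* and *fbln1*, the proteinase *ADAMTS5* and its relative *adamtsl5*. They were chosen by their mutant-against-WT differences in these same libraries, in which their counts were lower in the mutants. Their mutant-against-WT values are therefore a description, are printed without a p and count as no evidence. Counts of these genes called lower against WT, given further on, restate the choice. The comparison of double with single mutants was not itself used in the choice and was tested. It uses the same mutant libraries, however, so that it is not independent of the choice. All 8 genes passed the filter on low counts (a mean of at least 10 counts over the 10 libraries), as did 16513 genes in all.

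RNA-seq was made of whole embryos at stage 16, raised in E3 medium at 28 °C. There were 3 libraries of embryos labelled yap-/-, which carry the *yap1* deletion allele and are called *yap* single mutants, 3 of embryos labelled yap-/- yap1b-/-, which carry deletion alleles of *yap1* and *yap1b* and are called *yap* double mutants, and 4 of wild type embryos. All are of the iCab background, and the labels do not give the *yap1b* genotype of the single mutants. Each library is a pool of RNA from individually genotyped embryos merged by genotype, and a p-value here measures how pools vary. The mutations are in every cell of the embryo and not in a single tissue, and the RNA of a whole embryo cannot tell fewer cells of a type from less RNA per cell.

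The extracellular matrix is the network of secreted proteins to which cells attach through integrins and along which they migrate. Fibrillar collagens are trimers of alpha chains that form fibrils in the interstitial matrix, whereas laminins, trimers of an alpha, a beta and a gamma chain, polymerize into the sheet of the basement membrane under epithelia. Fibulins and emilins associate with elastic fibres and microfibrils, and proteinases of the ADAMTS family cut matrix proteoglycans. In fish and other vertebrate gastrulae, laminin and fibronectin are laid down between the germ layers as these move.

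Gene counts summed to 22053738 to 37776961 per single mutant library, 29521935 to 30627401 per double mutant library and 28978596 to 38383959 per WT library. WT 4 stands apart from the other WT libraries: its log2 CPM (counts scaled to library size, with a prior count of 2) had a Pearson's r across genes of 0.9515 to 0.9523 with WT 1 to 3, against 0.9895 to 0.9899 among these, and of 0.9578 to 0.9699 with the double mutants. The main model holds a technical set, which joins WT 1 to 3 to the single mutants and WT 4 to the double mutants, a division read from expression values in the study's source data and given by no label. Single mutants are thus compared with WT 1 to 3, whereas WT 4 is the one control of the double mutants and its variation is taken to equal that of the other libraries. Values of the double mutants against WT 1 to 3, from a model without the sets and without WT 4, are given beside those against WT 4 for the matrix genes. The double mutants and WT 1 to 3 are in different sets, so that set and genotype cannot be told apart there. At an adjusted p under 0.05, edgeR called 21.3% of all genes lower and 22.3% higher in that comparison. *yap1* itself had 2657, 2993 and 2656 normalized counts in the single mutants, 2707, 3148 and 3356 in the double mutants, and 9358, 9131 and 9028 in WT 1 to 3 and 5469.8 in WT 4. Its paralog *yap1b* had 1856, 2296 and 2349 in the single mutants, 846, 887 and 955 in the double mutants and 2416, 2269.6, 2434 and 2704 in WT 1 to 4, so that each mutated gene was lowest where it is labelled as mutated. Of the germ layer markers the study lists, 2 of 10 of the ectoderm were lower in the single mutants (background 0.600% of genes tested) and 3 of 10 in the double mutants (background 2.02%). These were *gata2a* and *tp63* in both and *dlx3b* in the double mutants, which the paper names as non-neural specifiers. Of the rest, none called, *sox3*, *chrd* and *otx2b* had log2 fold changes above 0 in both mutants, *foxi1*, *bmp2b* and *tfap2a* below 0, and *prdm1a* 1 of each sign. The summed ectoderm list lay at 30720 to 34868 normalized counts in the single mutants, 28123 to 31883 in the double mutants and 37065 to 38008 in WT. The summed mesoderm list went the other way, with 24098 to 31240 in the single mutants, 23079 to 33410 in the double mutants and 20853 to 22849 in WT, so that every mutant library was above every WT library. Its genes did not all follow the sum. *cdx4* had 16320, 11417 and 9657 normalized counts in the double mutants, against 6129, 6888 and 5840 in WT 1 to 3 and 9804 in WT 4. *tbxta* had 2087, 1748 and 2320 in the double mutants, against 4128, 3990 and 3734 in WT 1 to 3 and 2161 in WT 4. Of the 9 mesoderm markers tested, 0 were called in either mutant by edgeR or DESeq2 (2 higher in the single mutants at an unadjusted p under 0.05, and 0 in the double mutants), and of the 8 endoderm markers 1, *eml2*, was lower in the double mutants against WT 4. That call rests on WT 4: *eml2* had 149, 209 and 285 normalized counts in the double mutants, against 781 in WT 4 but 127, 65.0 and 92.5 in WT 1 to 3. The part of these shifts in the results below was not tested.

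The fibrillar collagen chain *col1a1b* showed the lowest mutant levels relative to WT of the 8 genes. It encodes the alpha 1 chain of collagen I, the main fibril-forming collagen of connective tissue, and RefSeq places it on chromosome 19 (15525168 to 15544425) of the ASM223467v1 assembly. *col1a1b* (ENSORLG00000011273) had 29.9, 61.6 and 55.9 normalized counts in the *yap* single mutant libraries, 12, 22.7 and 31.3 in the *yap* double mutant libraries, and 228, 153 and 206 in WT 1 to 3 and 248 in WT 4. These rest on 18, 70 and 68 reads in the single mutants, 10, 20 and 30 in the double mutants and 284, 172, 227 and 223 in WT 1 to 4. Every mutant library was below every WT library, and double mutant 3 was just above single mutant 1, so that the mutant groups overlapped. The single mutant mean was 25.1% of that of WT 1 to 3, and the double mutant mean was 8.87% of WT 4 and 11.2% of WT 1 to 3. The log2 fold change was −1.96 (SE 0.35) in the single mutants and −3.48 (SE 0.45) in the double mutants, or −3.13 (SE 0.38) against WT 1 to 3.

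*col5a2a*, the alpha 2 chain of collagen V, a minor fibrillar collagen that is built into collagen I fibrils and limits their diameter, was lower by a smaller margin. *col5a2a* (ENSORLG00000014658) had 557, 671 and 792 normalized counts in the *yap* single mutant libraries, 342, 487 and 394 in the *yap* double mutant libraries, and 1036, 828 and 1022 in WT 1 to 3 and 1247 in WT 4. The 3 groups did not overlap, with the double mutants lowest and the highest single mutant just under the lowest WT library. For the single mutants the log2 fold change was −0.51 (SE 0.18). In the double mutants it was −1.61 (SE 0.23) against WT 4 and −1.24 (SE 0.18) against WT 1 to 3. No RefSeq entry was matched to *col5a2a*, and its position is not given here.

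The partner chains of both collagens were measured too. *col1a2*, the alpha 2 chain of collagen I, had 68.1, 129 and 84.6 normalized counts in the single mutants, 69.6, 86.2 and 98.1 in the double mutants, and 136, 114 and 128 in WT 1 to 3 and 313 in WT 4. WT 4 was the highest library by far, and single mutant 2 lay among WT 1 to 3. By edgeR's quasi-likelihood test, with p adjusted over all genes by Benjamini-Hochberg, *col1a2* was lower in the double mutants against WT 4 (−1.88, adjusted p = 0.0180). Against WT 1 to 3 the value was −0.57 (adjusted p = 0.0991), and in the single mutants −0.41 (adjusted p = 0.596). The call was also lost without double mutant 2 (adjusted p = 0.0632). *col5a1*, the alpha 1 chain of collagen V, was not called against WT 4 (−1.04, adjusted p = 0.186) and was lower against WT 1 to 3 (−1.16, adjusted p = 0.00528). In the single mutants *col5a1* had −0.51 (adjusted p = 0.50). *col11a1a*, the alpha 1 chain of the related collagen XI, had 608, 135 and 260.4 normalized counts in the single mutants, 91.2, 74.9 and 107 in the double mutants, and 916, 849 and 654 in WT 1 to 3 and 111 in WT 4. WT 4 was thus close to the double mutants, and the value of *col11a1a* in these was −0.28 (adjusted p = 0.892) against WT 4 but −3.14 (adjusted p = 0.00138) against WT 1 to 3. In the single mutants it was −1.29 (adjusted p = 0.342), and the gene was called there only without single mutant 1 (−2.05, adjusted p = 0.0205).

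**Figure D1:**
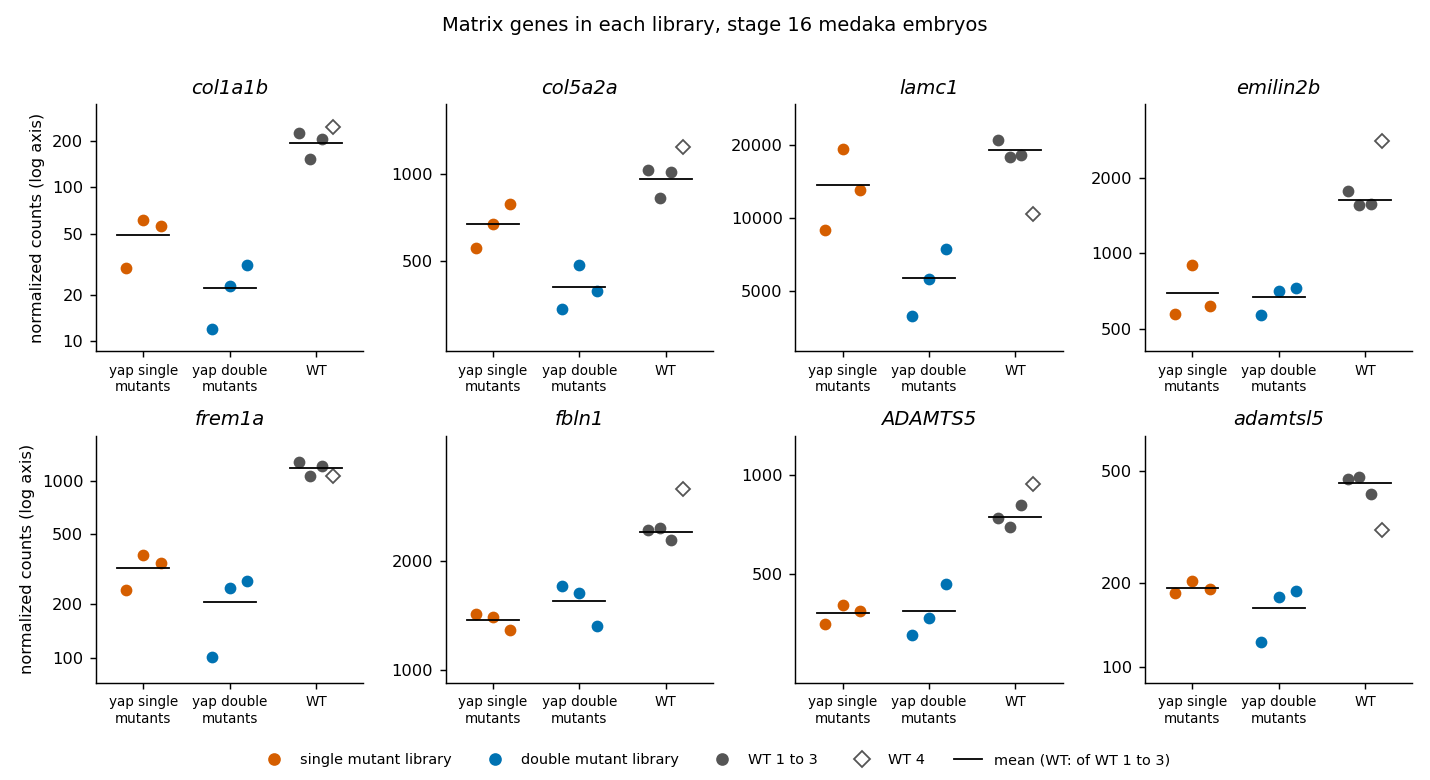
Normalized counts (log axis) of the 8 matrix genes, 1 point a library, in *yap* single mutants, *yap* double mutants and WT, with the open diamond for WT 4 and a line at the mean of each group (for WT, of WT 1 to 3). Every double mutant point lies below every WT point of its gene, and so does every single mutant point except single mutants 2 and 3 for *lamc1*.

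*lamc1*, the gamma 1 chain shared by most laminin trimers, was the gene in which the choice of WT library mattered most. It lies on chromosome 17 from 12616461 to 12659358. *lamc1* (ENSORLG00000007419) had 8898, 19335 and 13054 normalized counts in the *yap* single mutant libraries, 3925, 5577 and 7415 in the *yap* double mutant libraries, and 21116, 17929 and 18295 in WT 1 to 3 and 10382 in WT 4. Single mutant 2 lay within the range of WT 1 to 3, single mutant 3 above WT 4, and single mutant 1 below all WT libraries, a spread of 2.17 times within the group, against 1.18 times among WT 1 to 3. The double mutants were all below the single mutants and all below WT. WT 4 had 54.3% of the mean of WT 1 to 3. The log2 fold change in the double mutants was −0.88 (SE 0.39) against WT 4 and −1.76 (SE 0.30) against WT 1 to 3, and that in the single mutants was −0.47 (SE 0.29).

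Of the other laminin chains, *lamb1a* and *lama5* had a name. *lamb1a*, a beta 1 chain, had 10163, 14003 and 10382 normalized counts in the single mutants, 4204, 5278 and 6500.0 in the double mutants, and 17003, 17149 and 16259 in WT 1 to 3 and 8644 in WT 4. *lama5*, the alpha 5 chain, had 304, 2073 and 1405 in the single mutants, 257, 499 and 876 in the double mutants, and 1973, 1778 and 2132 in WT 1 to 3 and 1506 in WT 4. In all 3 laminin genes single mutant 1 was the lowest of the single mutants, as in 41.9% of all genes tested, and double mutant 1 the lowest of the double mutants, as in 40.1%. Single mutant 2 was the highest of its group and WT 4 was below WT 1 to 3 in all 3, whereas the order among WT 1 to 3 differed. Neither partner chain was called in the single mutants (*lamb1a* −0.55, adjusted p = 0.311, and *lama5* −0.63, adjusted p = 0.711). The double mutants against WT 4 gave −0.70 (adjusted p = 0.247) for *lamb1a* and −1.47 (adjusted p = 0.529) for *lama5*. Against WT 1 to 3 both were lower, with −1.66 (adjusted p = 0.000474) for *lamb1a* and −1.85 (adjusted p = 0.0329) for *lama5*.

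**Figure D2:**
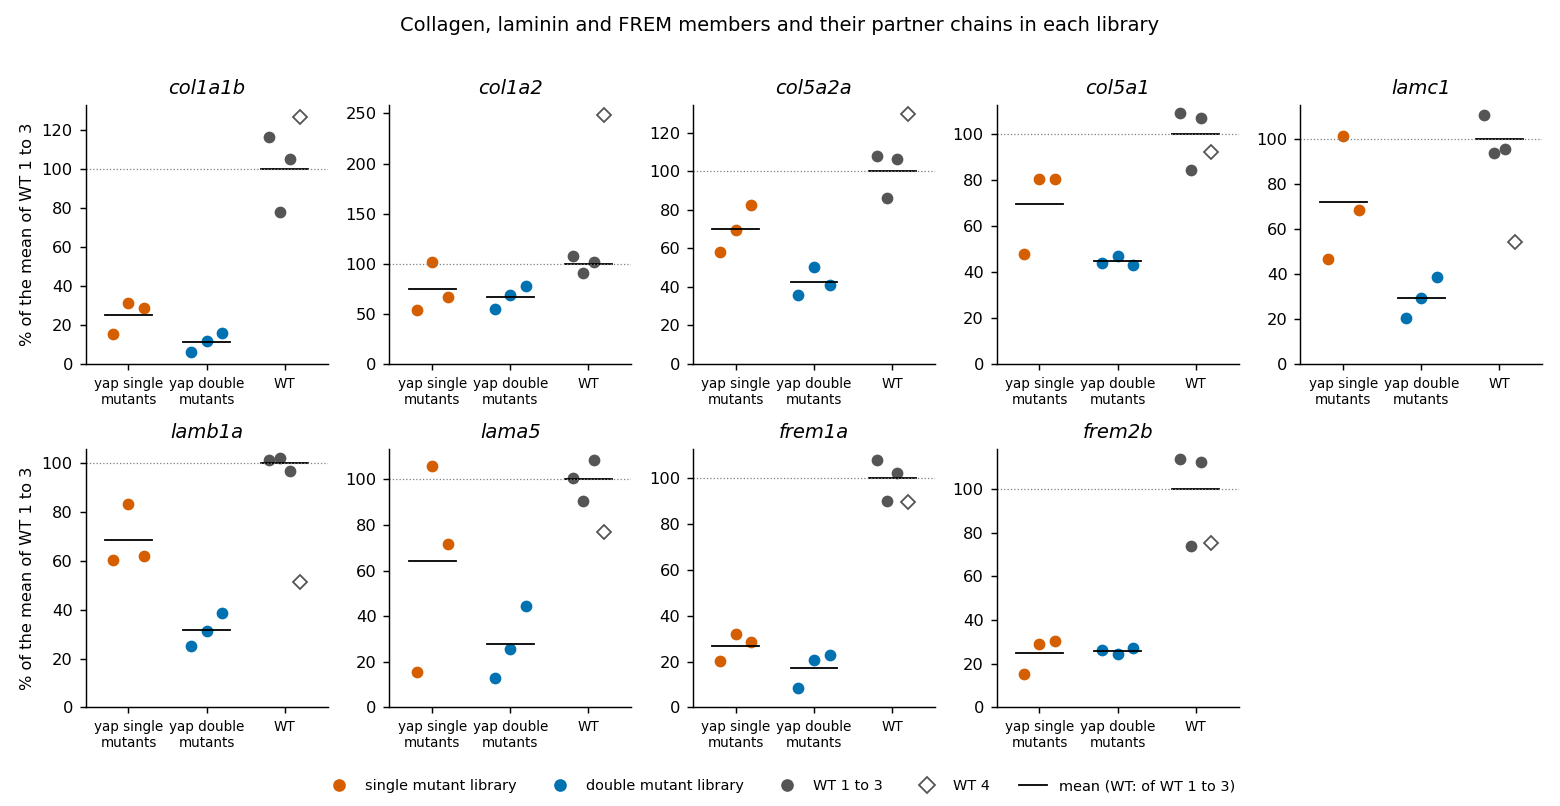
Levels of the collagen, laminin and FREM genes and of their partner chains in each library, as % of the mean of WT 1 to 3 (linear axes from 0), with WT 4 as an open diamond and a line at each group's mean. WT 4 is above the other WT libraries for *col1a1b*, *col1a2* and *col5a2a* and below them for *lamc1*, *lamb1a*, *lama5* and *frem1a*. The double mutants of *lamc1*, *lamb1a*, *col5a2a* and *col5a1* are below all single mutants.

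Of the proteins that laminin-rich matrix is linked to, a nidogen and fibronectin are given here. *nid2a*, a nidogen that links laminin to collagen IV, had −0.01 in the single mutants (adjusted p = 0.988) and −0.90 in the double mutants against WT 4 (adjusted p = 0.215). Against WT 1 to 3 *nid2a* was lower in the double mutants (−1.32, adjusted p = 0.00217). *fn1*, which encodes fibronectin, the main integrin ligand of the gastrula, had 23327, 43317 and 32416 normalized counts in the single mutants, 6971, 10025 and 14327 in the double mutants, and 50134, 44278 and 44568 in WT 1 to 3 and 14594 in WT 4. WT 4 was thus just above the highest double mutant library. The value in the double mutants was −0.48 (adjusted p = 0.715) against WT 4 and −2.15 (adjusted p = 0.000855) against WT 1 to 3, and that in the single mutants −0.49 (adjusted p = 0.567).

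*frem1a* belongs to the FRAS and FREM proteins, which form a complex in the basement membrane under the epidermis and whose loss in zebrafish gives blistered fins. The gene lies on chromosome 18 from 30001724 to 30033538. *frem1a* (ENSORLG00000020663) had 241, 381 and 343 normalized counts in the *yap* single mutant libraries, 101, 248 and 272 in the *yap* double mutant libraries, and 1288, 1075 and 1220.3 in WT 1 to 3 and 1068 in WT 4. All 6 mutant libraries were far below the WT libraries, WT 4 was close to WT 2, and double mutant 1 was the lowest of all. The single mutant mean was 26.9% of WT 1 to 3 and the double mutant mean 17.3%. The log2 fold change was −1.88 (SE 0.32) in the single mutants, and −2.36 (SE 0.40) in the double mutants, or −2.52 (SE 0.33) against WT 1 to 3. *frem2b*, a partner in the complex in other vertebrates, had 109.7, 212 and 222 normalized counts in the single mutants, 189.6, 177 and 199 in the double mutants and 825, 538, 815 and 548 in WT 1 to 4. The mutant and WT libraries of *frem2b* did not overlap. It was lower in the single mutants (−1.99, SE 0.27, adjusted p = 0.0146), though not without WT 1 (adjusted p = 0.0760) or WT 3 (0.07315). In the double mutants it had −1.54 (adjusted p = 0.0539) against WT 4 and was lower against WT 1 to 3 (−1.94, adjusted p = 0.000961). Against WT 4 it was called lower by DESeq2 (−1.51, adjusted p = 0.00499), and by edgeR without single mutant 1 (adjusted p = 0.00777). The paralog *frem1b* was not called: its values were 1.12 in the single mutants (adjusted p = 0.584), with single mutant 2 at 4152 normalized counts and the others at 465 and 1040.0, and 0.06 in the double mutants against WT 4 (adjusted p = 0.986) and −0.71 against WT 1 to 3 (adjusted p = 0.410).

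*emilin2b* encodes an emilin, a glycoprotein of the elastin and microfibril interface, and lies on chromosome 20 from 20432838 to 20446065. *emilin2b* (ENSORLG00000011287) had 570.1, 893 and 614 normalized counts in the *yap* single mutant libraries, 569, 709 and 729 in the *yap* double mutant libraries, and 1766, 1558 and 1575 in WT 1 to 3 and 2801 in WT 4. The mutant groups overlapped each other, with nearly equal means of 692 ± 175 (single) and 669 ± 87.4 (double) (SD, n = 3 each), and were below all WT libraries. WT 4 was the highest library by a wide margin, at 171% of the mean of WT 1 to 3. Log2 fold changes were −1.24 (SE 0.18) in the single mutants and −2.06 (SE 0.23) in the double mutants, but −1.29 (SE 0.18) when these were set against WT 1 to 3. Of the other emilins, *emilin2a* was lower in the double mutants against WT 1 to 3 (−1.30, adjusted p = 0.00193). Against WT 4 it had −0.52 (adjusted p = 0.563), and in the single mutants −0.67 (adjusted p = 0.293). *emilin1a* had −0.08 (adjusted p = 0.895) in the single mutants, and in the double mutants −0.64 (adjusted p = 0.380) against WT 4 and 0.21 (adjusted p = 0.403) against WT 1 to 3. *emilin3a* had 1.17 (adjusted p = 0.437) in the single mutants, and in the double mutants −0.09 (adjusted p = 0.969) and 0.87 (adjusted p = 0.161) against the same libraries, so that both values changed sign and neither gene was called.

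*fbln1* encodes fibulin-1, which binds fibronectin, laminin and elastic fibres. The count table's gene is paired in the study's annotation with a RefSeq locus on chromosome 6 from 11150642 to 11184348. *fbln1* (ENSORLG00000002396) had 1423, 1398 and 1288 normalized counts in the *yap* single mutant libraries, 1705, 1628 and 1323 in the *yap* double mutant libraries, and 2429, 2467 and 2287 in WT 1 to 3 and 3159.8 in WT 4. The single mutant libraries of *fbln1* were close to each other, with the highest at 1.10 times the lowest. The groups of single and double mutants overlapped, with the double mutant mean the higher at 1552 ± 202, against 1369 ± 71.6 in the single mutants (SD, n = 3 each). All 6 mutant libraries were below WT, and WT 4 was above WT 1 to 3. The log2 fold change was −0.81 (SE 0.12) in the single mutants, −1.03 (SE 0.16) in the double mutants against WT 4, and −0.62 (SE 0.12) in the double mutants against WT 1 to 3.

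*ADAMTS5*, a secreted metalloproteinase that cleaves the large proteoglycans aggrecan and versican, lies on chromosome 2 from 21809304 to 21827757. *ADAMTS5* (ENSORLG00000004966) had 352, 404 and 386 normalized counts in the *yap* single mutant libraries, 328, 369 and 466 in the *yap* double mutant libraries, and 739.6, 695 and 811 in WT 1 to 3 and 942 in WT 4. The mutant groups overlapped fully, with means of 50.9% (single) and 51.8% (double) of the mean of WT 1 to 3. Its log2 fold change was −0.97 (SE 0.15) in the single mutants and −1.28 (SE 0.20) in the double mutants, or −0.95 (SE 0.15) against WT 1 to 3. *adamtsl5*, on chromosome 3 from 4377377 to 4408499, encodes an ADAMTS-like protein, which lacks the proteinase domain and, in mammals, binds fibrillin microfibrils. *adamtsl5* (ENSORLG00000000178) had 184, 203 and 189.8 normalized counts in the *yap* single mutant libraries, 124, 178 and 187 in the *yap* double mutant libraries, and 466, 474 and 413 in WT 1 to 3 and 308 in WT 4. Mutant and WT libraries did not overlap, and WT 4 was the lowest of the WT libraries. Its log2 fold change was −1.23 (SE 0.18) in the single mutants, −0.92 (SE 0.24) in the double mutants against WT 4 and −1.47 (SE 0.18) against WT 1 to 3. Of the related proteinases, *adamts1* was lower in the double mutants against WT 1 to 3 (−1.62, adjusted p = 0.00154, and −0.91, adjusted p = 0.304, not called, against WT 4), with −0.56 (adjusted p = 0.474) in the single mutants. *ADAMTS20* was not called: it had 0.66 (adjusted p = 0.537) in the single mutants, and in the double mutants −0.35 (adjusted p = 0.820) against WT 4 and 0.56 (adjusted p = 0.203) against WT 1 to 3.

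**Figure D3:**
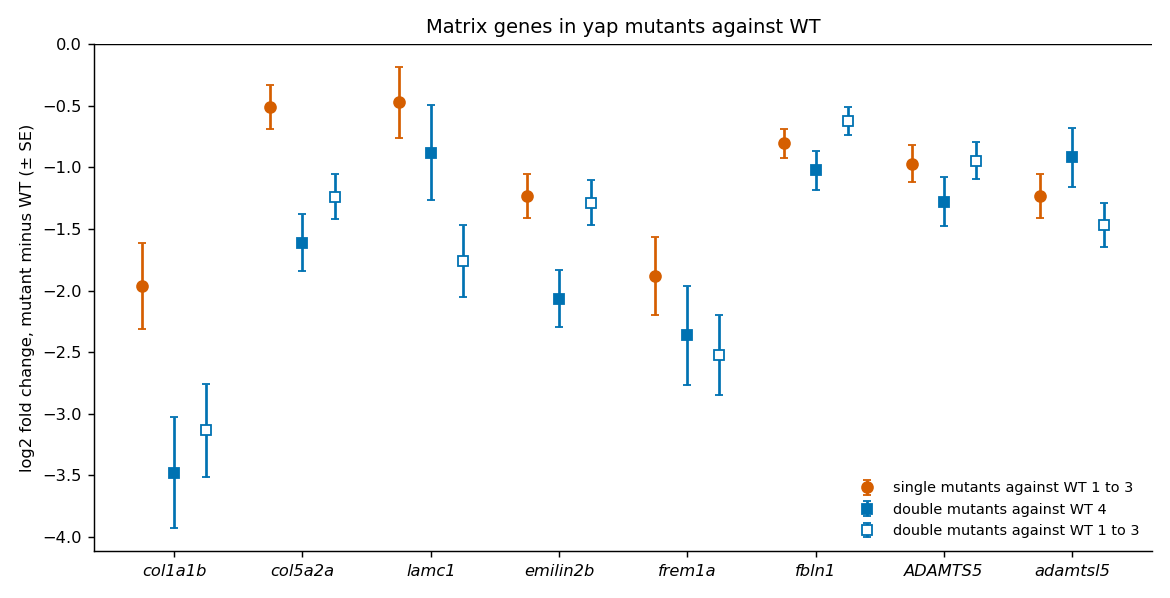
Log2 fold changes (± SE) of the 8 genes from edgeR, mutant minus WT: single mutants against WT 1 to 3 (circles), double mutants against WT 4 (filled squares) and double mutants against WT 1 to 3 (open squares). All points are below 0, and the pairs of squares lie farthest apart for *lamc1* (−0.88 and −1.76) and *emilin2b* (−2.06 and −1.29).

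Over the 8 genes the median log2 fold change was −1.10 in the single mutants (from −1.96 to −0.47) and −1.45 in the double mutants (from −3.48 to −0.88), where the medians over all genes tested were 0.02 and 0.01. With an adjusted p under 0.05, 6 of 8 were called lower in the single mutants (background 0.600% of genes tested), all but *lamc1* and *col5a2a*, and 6 of 8 in the double mutants (background 2.02%), all but *lamc1* and *adamtsl5*. Against WT 1 to 3 all 8 were called lower in the double mutants, where the background is 21.3%. These counts restate how the genes were chosen. The 6 calls in the single mutants became 0 without WT 1, WT 2, WT 3 or single mutant 3 and 1 without single mutant 2, with backgrounds of 0.139% to 0.261%. The single mutant libraries were below all 4 WT libraries in 7 of 8 genes (background 6.03%) and the double mutant libraries in 8 of 8 (background 15.7%). Single mutant 1 was the lowest single mutant in 7 of 8 genes, all but *fbln1*, and in 41.9% of all genes tested. Double mutant 1 was the lowest double mutant in 7 of 8, again all but *fbln1*, and in 40.1% of all genes. WT 4 was outside the range of WT 1 to 3 in all 8 genes, as in 81.4% of all genes, above it in 5 and below it in *lamc1*, *frem1a* and *adamtsl5*.

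Whether the added loss of *yap1b* moved these genes was tested by setting the double against the single mutants. The genes were chosen by the differences of these same libraries from WT, so that the test is not independent of the choice. In the main model, where each mutant is first set against the WT of its own set, 0 of the 8 genes were called by edgeR (background of lower calls 0.0242%), with 3 lower at an unadjusted p under 0.05 (background 3.25%), and 0 were called by DESeq2 (background 0.587% lower and 0.266% higher). Those 3 were *col1a1b* with −1.51 (SE 0.58, adjusted p = 0.937), *col5a2a* with −1.10 (SE 0.30, adjusted p = 0.424) and *emilin2b* with −0.83 (SE 0.30, adjusted p = 0.860). *lamc1* (−0.41), *frem1a* (−0.48), *fbln1* (−0.22), *ADAMTS5* (−0.31) and *adamtsl5* (0.31) had unadjusted p over 0.05, with an adjusted p = 1.00 each. When the libraries of the mutants were compared directly, without the sets and without WT 4, 3 of 8 genes were lower in the double mutants, where the background was 13.3%. These were *lamc1* with −1.29 (SE 0.29, adjusted p = 0.0138), *col5a2a* with −0.73 (SE 0.18, adjusted p = 0.0190) and *col1a1b* with −1.17 (SE 0.38, adjusted p = 0.0498). The double mutant libraries were below all single mutant libraries in *lamc1* and *col5a2a*, that is 2 of 8 genes (background 18.1%), and above them in none (background 17.7%). *emilin2b* (−0.05, adjusted p = 0.856) and *ADAMTS5* (0.02, adjusted p = 0.919) had direct differences smaller than their SE of 0.18 and 0.15. Without the sets but with WT 4 kept, no gene of the 8 was called (lowest adjusted p = 0.0571, *lamc1*), where the background was 1.13% lower and 0.793% higher. In the direct comparison the technical set and the genotype cannot be told apart.

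**Figure D4:**
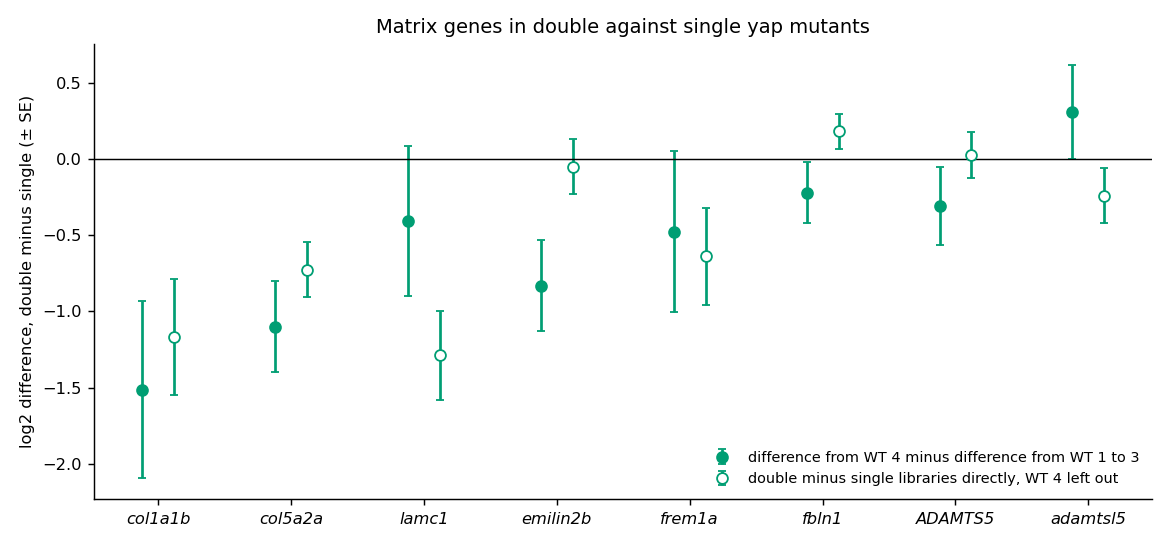
Log2 differences (± SE) of the 8 genes between double and single mutants, from the main model (filled, each mutant relative to the WT of its set) and directly without WT 4 (open). *col1a1b*, *col5a2a*, *lamc1*, *frem1a* and *emilin2b* are below 0 in both, whereas *fbln1*, *ADAMTS5* and *adamtsl5* change sign between them.

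The other matrix genes with a name, 68 in number, were taken by symbol in 8 families, and 64 were tested. Names come mostly from the study's own tables of changed genes, so that these counts lean towards genes the study called. The median log2 fold change of the 64 was −0.45 in the single mutants, with 53 below 0 (82.8%, against 47.0% of all genes tested), and −0.79 in the double mutants, with 50 below 0 (78.1%, against 48.9%). In the single mutants edgeR called 4 lower (background 0.600%) and 0 higher at an adjusted p under 0.05. With the unadjusted p in its place the counts were 25 lower (background 5.29%) and 4 higher (background 5.09%), and DESeq2 called 10 lower (background 1.91%) and 0 higher. In the double mutants edgeR called 9 lower (background 2.02%) and 0 higher, with 38 lower (background 8.30%) and 2 higher (background 3.53%) at an unadjusted p under 0.05, and DESeq2 called 16 lower (background 3.28%) and 0 higher. The single mutant count was 0 without WT 1 or WT 3, 2 without WT 2, single mutant 2 or double mutant 2, and 6 without single mutant 1 or double mutant 1. The double mutant count was 5 without WT 1 or WT 3, 3 without double mutant 2, 14 without single mutant 1 and 6 without WT 2, single mutant 3 or double mutant 1. Against WT 1 to 3, 32 were lower (background 21.3%) and 1 higher (background 22.3%) in the double mutants, and 5 of the 9 were among the 32.

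Among 12 other collagens, *col9a2*, a chain of the fibril-associated collagen IX, was lower in both mutants (−1.57, adjusted p = 0.0406, for the single mutants, and −1.86, adjusted p = 0.0294, for the double mutants, or −1.74, adjusted p = 0.00186, against WT 1 to 3). It had 108, 228 and 186 normalized counts in the single mutants, 110.4, 158 and 200.3 in the double mutants and 512, 549, 510.4 and 566 in WT 1 to 4, with no overlap between mutants and WT. Its single mutant call was lost without any one of WT 1 to 3, single mutants 2 and 3 or double mutant 2 (adjusted p = 0.0604 to 0.189), and its double mutant call without any one of WT 1 to 3, single mutant 3 or double mutants 1 and 2 (0.0577 to 0.0943). Of 6 other basement membrane genes 0 were called by edgeR in either mutant, with 2 lower in the single and 4 lower in the double mutants at an unadjusted p under 0.05, and DESeq2 called 1 lower in the single mutants, *npnta*, and 0 in the double mutants. The double mutants against WT 1 to 3 had 4 of the 6 called lower by edgeR, *agrn*, *lama5*, *lamb1a* and *nid2a*, where the background is 21.3%. *npnta*, which encodes the integrin ligand nephronectin, had −1.53 (adjusted p = 0.0856) in the single mutants by edgeR and −1.54 (adjusted p = 0.00263) by DESeq2. In the microfibril family of 11, *FBN1*, which encodes a fibrillin, was lower in the double mutants (−2.88, adjusted p = 0.0232), but it had 90.1 normalized counts in WT 4 and 16.8, 17.8 and 17.2 in WT 1 to 3, and against WT 1 to 3 the value was −0.51 (adjusted p = 0.387). The *FBN1* call was lost without WT 1, WT 3 or double mutant 2 (adjusted p = 0.0501 to 0.0864). *mfap4*, a microfibril-associated protein, had 0, 3.52 and 2.46 normalized counts in the single mutants, 10.8, 10.2 and 13.6 in the double mutants, and 20.1, 16.9 and 19.0 in WT 1 to 3 and 57.8 in WT 4. It was called lower in the single mutants (−2.95, adjusted p = 0.0330) and in the double mutants against WT 4 (−2.31, adjusted p = 0.0421), but not against WT 1 to 3 (−0.69, adjusted p = 0.193), and WT 4 was the highest library by far. These are calls that leaving out WT 1, WT 2, WT 3, single mutant 3 or double mutant 2 ended in both mutants, single mutant 2 in the single mutants and double mutant 1 or 3 in the double mutants (adjusted p = 0.0630 to 0.160).

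Of 7 glycoprotein genes edgeR called 0 in either mutant, with 3 lower and 2 higher in the single mutants at an unadjusted p under 0.05. DESeq2 called *vwa1* lower in the single (−0.92, adjusted p = 0.00136) and the double mutants (−1.02, adjusted p = 0.0336). It called *thbs4b* lower in the double mutants (−1.80, adjusted p = 0.0493). Against WT 1 to 3 edgeR called 5 of the 7 lower in the double mutants (background 21.3%), namely *fn1*, *thbs4b*, *vwa1*, *vtna* and *tnc*. Against WT 4 *vtna* (1.38) and *tnc* (0.42) had the opposite sign and were not called, whereas *fn1*, *thbs4b* and *vwa1* were below 0 there too. Of 7 proteoglycan genes, *hapln3*, a link protein that ties proteoglycans to hyaluronan, was lower in the single (−0.92, SE 0.12, adjusted p = 0.00995) and the double mutants (−1.47, SE 0.15, adjusted p = 0.00290), also against WT 1 to 3 (−1.05, adjusted p = 0.000505). It had 3136, 3510.4 and 3721 normalized counts in the single mutants, 3028, 3555 and 2889 in the double mutants and 6491, 6237, 6899 and 8752 in WT 1 to 4, with no overlap between mutants and WT. The single mutant call was lost without WT 1 (adjusted p = 0.0630) or WT 3 (0.07315). The glypican *gpc5a* was lower in the double mutants (−1.76, adjusted p = 0.0128), also against WT 1 to 3 (−0.73, adjusted p = 0.0269). In the single mutants *gpc5a* had −1.06 (adjusted p = 0.0810) by edgeR and was called lower by DESeq2 (−1.05, adjusted p = 0.000688). DESeq2 also called the glypican *gpc4* lower in the single mutants (−0.53, adjusted p = 0.000379), where edgeR gave −0.53 (adjusted p = 0.0815). Of 11 proteinases and inhibitors edgeR called 1, *timp2*, an inhibitor of matrix metalloproteinases, lower in the double mutants (−0.91, adjusted p = 0.0488). That call was lost without WT 1, WT 2, WT 3, single mutant 3 or any of the double mutants (adjusted p = 0.0792 to 0.131), and against WT 1 to 3 (−0.33, adjusted p = 0.0968). DESeq2 called *timp2* and *adamts6* lower in the double mutants and *adamts15b* lower in the single mutants, the last pair being proteinases of the ADAMTS family. *adamts6* had −1.27 (adjusted p = 0.00674) against WT 4 by DESeq2, −1.29 (adjusted p = 0.0574) by edgeR and 0.10 (adjusted p = 0.747) against WT 1 to 3. *adamts15b* had −0.97 (adjusted p = 0.0174) in the single mutants by DESeq2 and −0.96 (adjusted p = 0.168) by edgeR. In the double mutants against WT 1 to 3 edgeR called 5 of the 11 lower (background 21.3%), namely *adamts1*, *adamts15b*, *adamts16*, *mmp28* and *paplna*. Among 8 collagen-modifying genes, *loxl5b* went up in the double mutants but was not called (1.08, adjusted p = 0.194, against WT 4, and 0.32, adjusted p = 0.268, against WT 1 to 3). *serpinh1b*, which encodes the collagen chaperone Hsp47, and *serpinh2* were lower in the double mutants. The values were −1.28 for *serpinh1b* (adjusted p = 0.00556) and −1.47 for *serpinh2* (adjusted p = 0.0181), and against WT 1 to 3 −1.13 (adjusted p = 0.000460) and −1.47 (adjusted p = 0.000855). *serpinh2* had 43.2, 49.9 and 57.4 normalized counts in the double mutants and 129, 155, 133 and 139 in WT 1 to 4, and lost its call without double mutant 2 (adjusted p = 0.0600). In the single mutants *serpinh1b* had −0.59 (adjusted p = 0.0761) by edgeR. It was called lower there by DESeq2 (−0.59, adjusted p = 0.000651), and by edgeR without single mutant 1 (adjusted p = 0.0364) or double mutant 1 (0.0493).

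**Figure D5:**
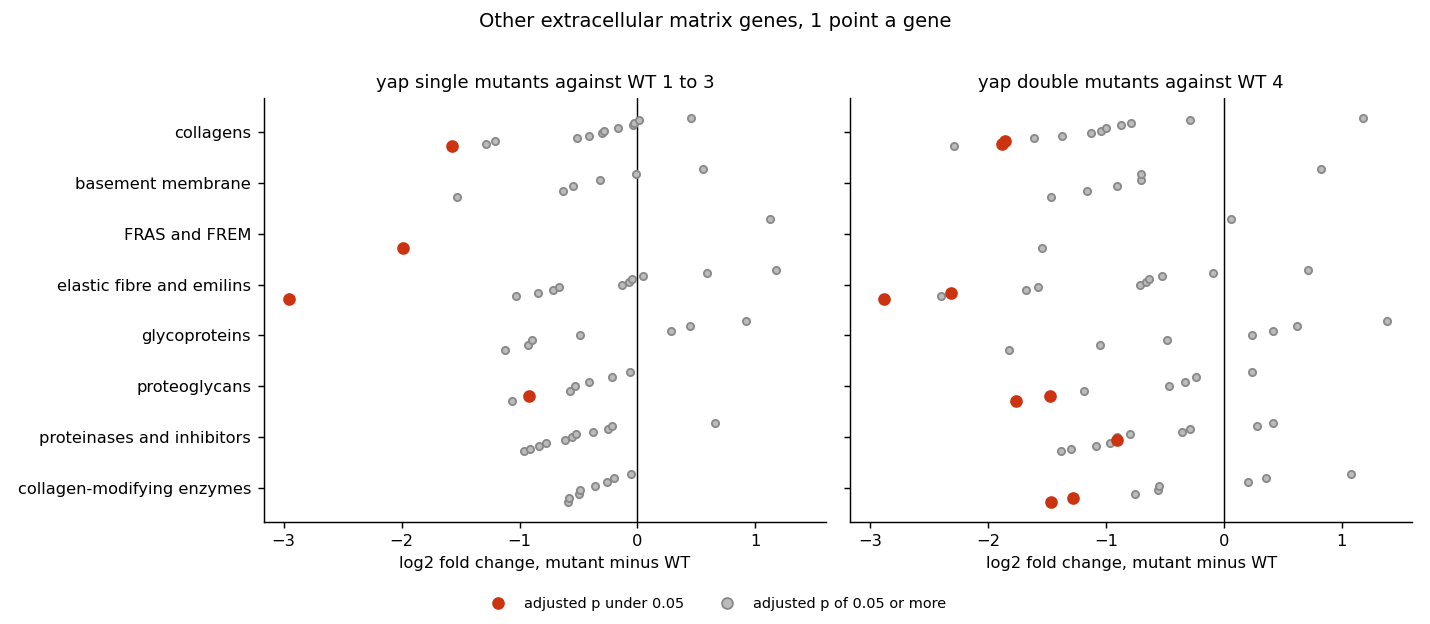
Log2 fold changes, mutant minus WT, of the 64 other matrix genes tested, by family and 1 point a gene, for the single mutants (left, against WT 1 to 3) and the double mutants (right, against WT 4), with genes of an adjusted p under 0.05 in red. All 4 red points on the left and all 9 on the right are below 0.

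The genes whose log2 CPM was most like that of each of the 8 over the 10 libraries were looked up among genes with a name. The points share the genotypes, the libraries and the sets, and named genes are mostly those the study called. Pearson's r is given as a description. The genes nearest to *col1a1b* were *lima1a* (0.99), *pard6b* (0.99) and *tead1b* (0.98), and to *col5a2a* *gnb4b* (0.98), *klf8* (0.97) and *tead1b* (0.97). *tead1b*, one of the TEAD factors through which Yap acts on DNA, is thus near both collagen chains. Nearest to *lamc1* were *erfl3* (1.00), *bmpr1aa* (0.99) and *tnrc18* (0.99), of which *bmpr1aa* encodes a BMP receptor. Nearest to *frem1a* were *ldlrb* (0.99), *pim3* (0.99) and *niban2b* (0.99), and to *adamtsl5* *SYDE1* (0.98), *niban2b* (0.98) and *trim45* (0.98). Nearest to *emilin2b* were *F2RL2* (0.99), *si:dkey-17m8.1* (0.99) and *afap1l2* (0.98), and to *ADAMTS5* *F2RL2* (0.99), *xylt1* (0.98) and *atf3* (0.98). Nearest to *fbln1* were *ltb4r2a* (0.99), *plk2b* (0.98) and *ctdsp2* (0.98). Among the 8 genes themselves the 28 pairs had an r of 0.325 (*lamc1* and *fbln1*) to 0.984 (*col1a1b* and *frem1a*), with a median of 0.838.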

How the data were processed

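Raw counts per gene were used as deposited, whole numbers for 10 libraries. The authors trimmed reads with Trimmomatic 0.39, removed ribosomal reads with sortmerna 2.1, aligned to ASM223467 with Hisat2 2.1, dropped alignments of mapping quality under 60 and counted with htseq-count on the genes of Ensembl 99. The 5 summary rows of the counter, of which reads in no gene made up 10.6% to 11.3% and ambiguous reads 7.94% to 9.86% of all reads listed, were left out of library sizes and tests.

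edgeR 4.0.16 (R 4.3.3) was run on all 10 libraries for genes whose mean count reached 10. Its quasi-likelihood test used a model of genotype plus technical set after TMM normalization, and p was adjusted over every gene tested by Benjamini-Hochberg. Normalized counts are TMM-scaled counts. DESeq2 1.42.0, other size factors, no filter, no set, each set alone, WT 4 left out, a replicate block and each library left out in turn were the alternatives. Pearson's r of the residuals, across genes, was −0.0619 to 0.49 for libraries that share a number and −0.414 to 0.355 for those that do not. The ranges overlap, with the first lying higher, and do not settle whether the numbers pair the libraries. The main model did not pair them, and the replicate block is the alternative that does. The block model holds no set, and WT 4 is the only library numbered 4. WT 4 therefore has no weight in its comparisons, which are those without WT 4 and the sets, with pairing added. For the double mutants, set and genotype cannot be told apart in the block model.

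The 8 genes, the lists and the alternatives were chosen with earlier results of these data known. Genes named are the 8, *yap1* and *yap1b*, partner chains, linking proteins (nidogen, fibronectin) and paralogs from a list, up to 3 called genes a family with the smallest p, and for each of the 8 the 3 named genes of highest r. Outside this rule, the germ layer markers named (*eml2* among them), *npnta*, *agrn*, *egfl6*, *col4a5*, *col4a6*, *col18a1a*, *COL6A6*, *vwa1*, *thbs4b*, *vtna*, *tnc*, *fmoda*, *gpc4*, *adamts6*, *adamts15b*, *adamts16*, *mmp9*, *mmp28*, *paplna*, *LOX*, *loxl5b*, *p4ha1b* and *p4ha2* were named after their values were seen. Symbols came from the study's tables (2208 genes) and coordinates from RefSeq. No sequence is shown and no transcript length was used, so levels of different genes were not compared.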

Additional observations from a re-analysis of the deposited data

Results flagged for a closer look

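WT 4 was set apart from WT 1 to 3 by more than Dixon's 95% critical value for 4 samples in 10 of the 39 genes for which the 4 WT libraries were checked. Chance would set apart about 1 in 20 of genes chosen without regard to WT 4. Some of the 39, such as *FBN1*, *mfap4* and *gpc5a*, were named for calls against WT 4, which depend on its own value. The 10 of 39 can therefore not be set against that share. It was the high library for *emilin2b* (2801 normalized counts), *col1a2* (313 normalized counts), *emilin1a* (508 normalized counts), *FBN1* (90.1 normalized counts), *mfap4* (57.8 normalized counts) and *gpc5a* (355 normalized counts). It was the low library for *yap1* (5469.8 normalized counts), *lamb1a* (8644 normalized counts), *agrn* (1947 normalized counts) and *fn1* (14594 normalized counts). Of the 8 matrix genes described, only *emilin2b* was among these. The double mutants were compared with WT 4 alone in the main model, and their values against WT 1 to 3 are given with the results they bear on.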

How the results depend on the processing

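The log2 fold changes of the 8 genes against WT stayed below 0 in all 112 values from other settings and all 152 with 1 library left out, with medians of −1.14 to −1.04 (single mutants) and −1.50 to −1.34 (double mutants) when 1 library was left out. Their sizes changed with the setting. In the double mutants *lamc1* had −0.88 in the main model and −1.76 without WT 4 and the sets. *emilin2b* had −2.06 and −1.29 in these. The count of the 8 called lower in the double mutants was 2 with each set alone, where WT 4 is the only WT library, and 6 in every case with 1 library left out. In the single mutants it was 0 to 6 with 1 library left out. With 1 library left out the background was 0.139% to 0.902% in the single and 1.15% to 2.91% in the double mutants. Double against single mutants called 0 of the 8 with any 1 library left out (background of lower calls 0 to 0.0484%). It called 3 lower without WT 4 and the sets (background 13.3%), and 3 lower with the replicate number as a block in place of the sets (background 14.0%). The block gives WT 4 no weight either, so that its count is not a separate result. Set and genotype cannot be told apart in either setting. With no set, without WT 4 and with the replicate block, in this order, the double against single difference reversed for *fbln1* (0.18, 0.18 and 0.17), *ADAMTS5* (0.024, 0.025 and 0.014) and *adamtsl5* (−0.24, −0.24 and −0.25).

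Of the other matrix genes, DESeq2 called 10 lower in single and 16 in double mutants, each set alone 2 and 2, and no set 31, without WT 4 and the sets 32 and the replicate block 33 in the double mutants, where these 3 settings called 1 higher each. Of all genes they called 13.1%, 21.3% and 23.0% lower, and 22.3% and 22.4% higher in the last 2, against 2.02% lower and 0.285% higher in the main model. Neither of the last 2 gives WT 4 any weight, so that they are not separate results. With 1 library left out 0 to 6 were called lower in single and 3 to 14 in double mutants. In the same 3 settings the double mutant value reversed for *frem1b* (−0.55, −0.71 and −0.79), *emilin3a* (0.57, 0.87 and 0.85) and *ADAMTS20* (0.27, 0.56 and 0.52). For *vtna*, *tnc*, *mmp9* and *LOX* the value went from above 0 in the main model (1.38, 0.42, 0.41 and 0.35) to below 0 in all 3. By edgeR *vtna* (adjusted p = 0.0471) and *tnc* (0.0403) were called lower without WT 4 and the sets. In the last 2 settings the double mutant value also reversed for *emilin1a* (0.21 and 0.21), *adamts6* (0.098 and 0.089) and *p4ha1b* (0.19 and 0.20). With no set the single mutant value reversed for *nid2a* (0.081), *col4a6* (0.016), *COL6A6* (0.18) and *col18a1a* (−0.020). With 1 library left out the values crossed 0 for *nid2a* (−0.31 to 0.13), *col4a6* (−0.27 to 0.17), *frem1b* (−0.20 to 1.56), *emilin1a* (−0.27 to 0.017) and *FBN1* (−0.16 to 0.094) in the single mutants, and for *frem1b* (−0.24 to 0.27) and *emilin3a* (−0.66 to 0.19) in the double mutants, none of them called in the main model apart from *FBN1* in the double mutants. Values with 1 library left out were followed for part of the other matrix genes only. The cause of these shifts was not tested. Leaving out WT 4 while the sets are in the model gives no value for the double mutants. At 10 to 30 reads per double mutant library *col1a1b* is the least precisely counted of the 8.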

Other observations

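Some other genes of the basement membrane, named here after their values were seen, differed between double and single mutants when the libraries were compared directly without WT 4. In that comparison 17 of 64 other matrix genes were lower and 4 higher, where 13.3% of all genes were lower and 11.5% higher. Of the 6 genes of the basement membrane family 3 were lower (*agrn*, *lamb1a* and *nid2a*), and 1, *npnta*, which encodes nephronectin, was higher (1.06, adjusted p = 0.0448). *egfl6* had 0.55 (adjusted p = 0.164). Outside that family *mfap4* (2.27, adjusted p = 0.0156), *fmoda* (1.32, adjusted p = 0.0180) and *loxl5b* (0.90, adjusted p = 0.0205) were also higher. *agrn*, which encodes the heparan sulfate proteoglycan agrin, had 983, 1131 and 1475 normalized counts in the double mutants, against 1692, 3096 and 2170.4 in the single mutants (−0.96, adjusted p = 0.0141). *col4a5*, a chain of collagen IV, had 436, 695 and 832 in the double mutants, against 1035, 2045 and 1481 in the single mutants (−1.22, adjusted p = 0.0129). *col4a6*, another collagen IV chain, had 244, 390.2 and 506 in the double mutants, against 522, 1029 and 827 in the single mutants (−1.06, adjusted p = 0.0263). No library of the double mutants reached the lowest single mutant library in any of these 3 genes. The same held for 21 of the 64 other matrix genes and for 18.1% of all genes tested. In the main model their differences were −0.39, −0.82 and −0.84, with an adjusted p = 1.00 each, and technical set and genotype cannot be told apart in the direct comparison. The only other matrix gene called higher in the double mutants against WT 1 to 3 was *egfl6*, a basement membrane protein with EGF repeats, with 521, 295 and 456 normalized counts in the double mutants, against 219, 205 and 166 in WT 1 to 3 (1.11, adjusted p = 0.0111). Against WT 4 it had 0.83 (adjusted p = 0.495).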
